A study of Vitis vinifera with 4 samples.

Results

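The 482 events examined here are those that a list of MYBPA1 binding events places on chr00, out of 30318 in the list. They were chosen by the chromosome name alone, and the other 29836 events lie on chr01 to chr19. In grapevine assemblies chr00 is the name given to sequence that could not be assigned to a chromosome, joined end to end. MYBPA1 is a MYB transcription factor of grapevine (Vitvi15g00938 in the labels). The assay was DNA affinity purification sequencing, in which a tagged protein made in a cell-free extract is mixed with purified genomic DNA and the fragments it holds are sequenced. The design had 2 libraries of MYBPA1 fused to a HALO tag and 2 libraries of pIX-HALO, which carries the tag without a transcription factor. All 4 used young leaf DNA of cultivar Pinot Noir, and both proteins came from rabbit reticulocyte lysate. The list has 1 value per event and none per library, so no spread between replicates can be given, the libraries' depth is unknown, and whether an event was found in both MYBPA1 libraries is not known.

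MYBPA1 belongs to the R2R3 class of MYB proteins, which bind short DNA motifs through a pair of MYB repeats at their amino end. It is known in grapevine berries as an activator of proanthocyanidin genes, the genes that make condensed tannins. Purified DNA carries no nucleosomes, so an event shows where the protein can hold DNA in a tube. Unplaced sequence is known to be rich in repeats, in alternative versions of heterozygous regions and in pieces too short to order. Neighbours on chr00 need not be neighbours in the plant, and a gap on chr00 can cross the join between unrelated pieces.

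Each event is a stretch of 201 bp for which the authors gave a signal, a −log10 p and a −log10 q. The scaling of the signal value is not given in the sources used here. Coordinates are printed from position 1, and the genome build behind them is not stated. No sequence or gene is given for an event, since the sequence of that build was not used here. Because no test over replicates is possible, each chr00 value is set beside the lowest and highest of the 19 numbered chromosomes. Those chromosomes are not replicates, and no difference below was tested. Intervals cover counting error only and treat events as independent.

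The chr00 events lay inside the range of the numbered chromosomes in the share with a neighbour within 1000 bp and in their median signal, and outside it in density and in the upper tail of signal. The chr00 events had a median signal of 49.9 (95% interval 47 to 56.7), and chromosome medians ran from 46.9 on chr15 to 52 on chr08. The 25th percentile on chr00 was 33, equal to the lowest of the 19, and the 75th percentile was 105.9, against 74.9 to 82 on numbered chromosomes. The 95th percentile was 466, against 173 on chr17 to 201 on chr04. In the plot of chromosomes side by side, chr00 falls among the others for close neighbours and median signal and apart from them for the strongest events.

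**Figure D1:**
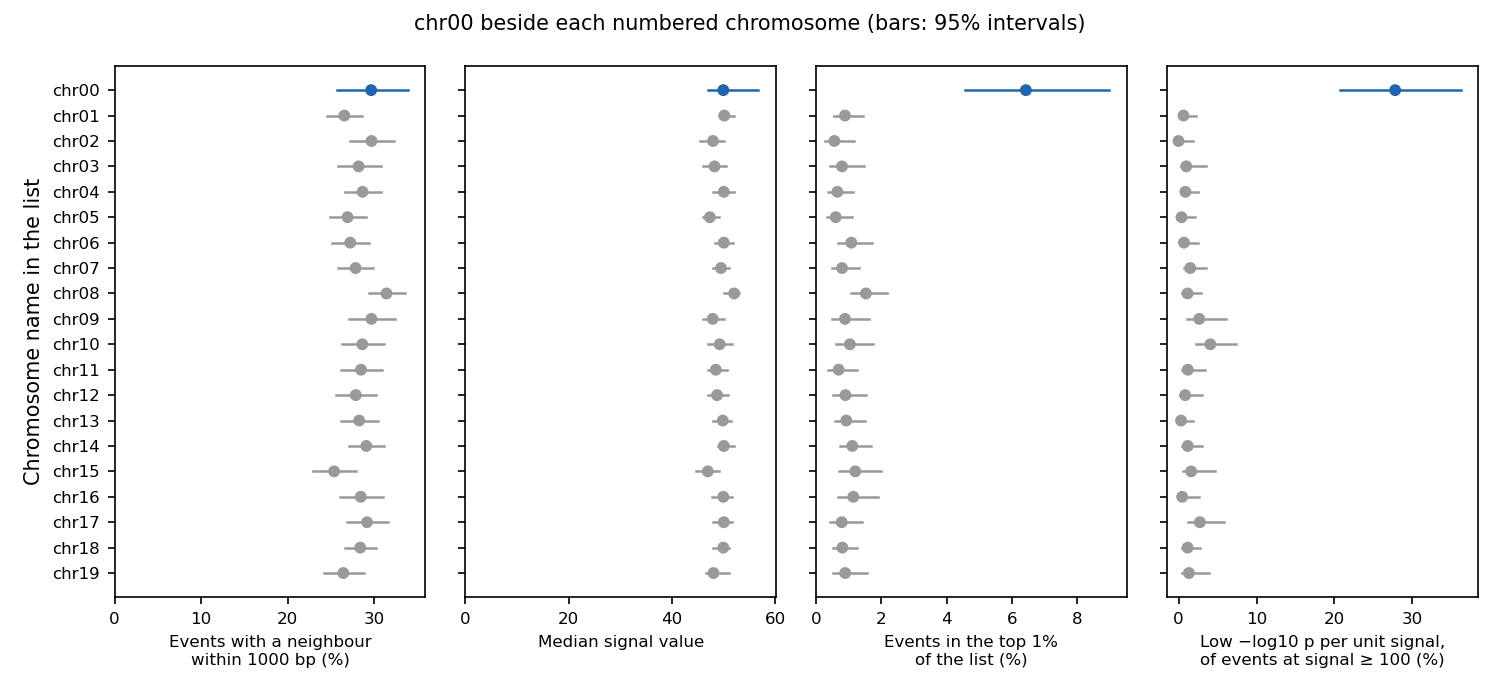
Each row is a chromosome name of the list, with chr00 in blue. From left to right the points give the share of events with another within 1000 bp (percent), the median signal value (authors' units), the share of events in the top 1% of the list (percent) and, among events with a signal of 100 or more, the share with a −log10 p below 0.1 per unit of signal (percent); bars are 95% intervals. The chr00 point lies inside the range of the other 19 in the first 2 panels and above it in the last 2, at 6.43% and 27.8%.

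Events on chr00 were sparse and unevenly spaced. Over the 27.0 Mb from the first to the last event there were 17.8 per Mb, below the lowest numbered chromosome, chr09, at 49.1. The median distance between neighbouring centres was 11345 bp on chr00, with quartiles of 2697 and 54766 bp. On the numbered chromosomes the median ranged from 6240.5 to 8270 bp. Over all their 29817 gaps the quartiles were 2251 and 17558 bp. The lower quartile on chr00 was thus near that of the numbered chromosomes, and the upper quartile was well above theirs.

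Gaps of 100000 bp or more made up 16.2% of the chr00 gaps (78 of 481, 95% interval 13.2 to 19.8%), compared with 1.41% on numbered chromosomes. Gaps of 5000 to under 20000 bp, the most frequent class on numbered chromosomes at 37.4%, made up 23.1% (19.5 to 27.1%) on chr00. The 37 gaps over 200 kb covered 51.2% of the chr00 span, whereas such gaps covered 10.3% of the numbered spans. The longest chr00 gap ran from a centre at 2220466 to one at 3182105, a length of 962 kb. The next were 728 kb from 4892804 to 5620651 and 608 kb from 21626700 to 22234465. How much of these gaps is unresolved sequence was not tested.

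**Figure D2:**
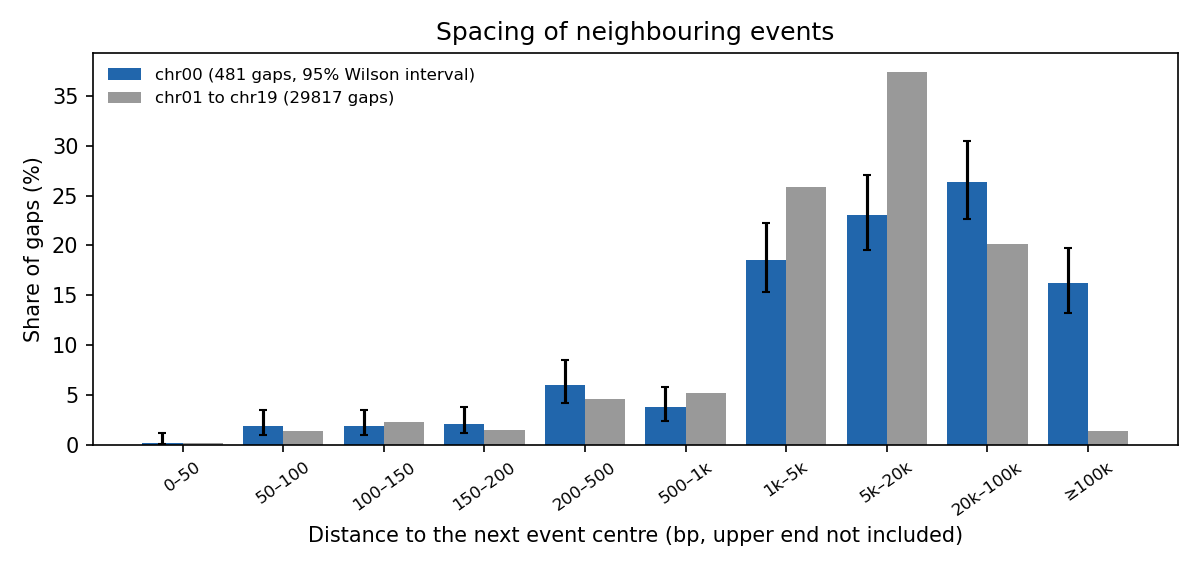
Bars give the share of gaps between neighbouring event centres (percent) in each distance class (bp), for chr00 in blue with 95% Wilson intervals and for chr01 to chr19 in grey. Below 1000 bp the bars of both sets are close to each other; chr00 has fewer gaps of 1000 to 20000 bp and more of 20000 bp and above.

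Of the 272 windows of 100 kb up to the last event, 118 held none, and 53 of the 154 that held any had 1. The 27 full windows of 1 Mb held between 5 and 51 events with a median of 16. The richest, from 6000001 to 7000000, had 10.6% of all chr00 events, yet its median signal was 40 and its highest 117.5. Among windows of 100 kb the richest lay inside it, from 6000001 to 6100000, with 14 events of signal 22 to 88. Windows of 13 events followed from 9800001 to 9900000, with a median signal of 46.4, and from 10800001 to 10900000, with a median of 363. The window from 11300001 to 11400000 held 10 events, among them 1 of signal 940, and 4 windows tied at 9. Strength varied widely among these rich windows: that of 14 events and the first of 13 held no event of the top 1% of the list, and the other of 13 held 5.

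At 1000 bp, the share of events with a close neighbour on chr00 was inside the range of the other chromosomes, although its density was below that range. Another event lay within 1000 bp for 143 of the 482 (29.7%, 95% interval 25.8 to 33.9%), against 28.3% of the whole list and 25.4 to 31.4% per numbered chromosome. Within 500 bp the chr00 share was 23.2% (19.7 to 27.2%), above the 17.6 to 21.4% of the numbered chromosomes, so its place depended on the distance taken. Both chr00 shares include the tracts described further on. There 71.2% of events had a neighbour within 1000 bp, against 24.7% of the other chr00 events. The share within 500 bp was not computed without the tracts. Distances under 50 bp occurred once, those of 50 to under 100 bp 9 times and those of 100 to under 150 bp 9 times. The closest pair was 44 bp apart, with signals of 243.8 at 18200612 to 18200812 and 660.2 at 18200656 to 18200856. The next closest, 55 bp apart, joined a signal of 567.7 at 10802475 to 10802675 with 131.3 at 10802530 to 10802730. Events this close overlap in the list and can rest on the same fragments.

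The closest pairs on chr00 had higher signals than those of numbered chromosomes. In the 29 chr00 pairs at most 200 bp apart, the stronger event had a median signal of 154 and the weaker 59.7, against 92 and 45.8 in 1603 pairs elsewhere. Of the 29, 9 lay in the tracts of strong events described further on, with medians of 391 and 237.5, and the other 20 had 110 and 47.3. The ratio within a pair was alike, with medians of 1.62 on chr00 and 1.72 on numbered chromosomes. Pairs 201 to 1000 bp apart had medians of 74 and 39 in 47 chr00 pairs and 73 and 38.6 in 2912 others. Single events were also classed by their nearest neighbour. Those on chr00 with one 200 to 1000 bp away had a 75th percentile of 194.5, against 80 elsewhere. These chr00 events include members of the tracts, which were chosen on signal and p, and the percentile was not computed without them. The 98 chr00 events over 20000 bp from any other had a median signal of 39 (quartiles 32 and 58.9), compared with 43 among 1671 such events elsewhere. Most events with a neighbour within 1000 bp had a fractional signal (68.5% on chr00, 69.2% elsewhere). Of the events without one, 24.8% and 30.1% did, in the same order.

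Joining events at most 1000 bp apart left 339 chr00 events alone and gave 58 pairs and 9 stacks of 3. No stack was larger. The largest on each numbered chromosome held 4 to 7, among 1128 to 2355 events and 13 to 42 stacks, and a maximum grows with the number of events. The stacks held 27 events (5.60%, 95% interval 3.88 to 8.03%), against 5.25% of the whole list and 3.42 to 7.23% per numbered chromosome. Per 1000 events there were 18.7 stacks on chr00 and 9.66 to 23.1 on numbered chromosomes. At this joining distance the share in stacks was thus near the background. At 500 bp it was 2.49% (1.43 to 4.30%), against 0.966 to 2.46% per numbered chromosome. At 5000 bp it was 27.4%, against 37.1% over chr01 to chr19.

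The 9 stacks are described here after their values were seen. Their outer centres lay 228 to 1307 bp apart, and their strongest members ran from 51.7 to 686.1. The strongest stack, from 10868706 to 10869220, had signals of 237.5, 686.1 and 259.4 with gaps of 179 and 135 bp. Its middle event had a −log10 p of 147, and the flanking ones had 5.57 and 12.4. Numbered events with a signal of 200 to under 400 had a median −log10 p of 59.6. A second stack of this shape, from 16350519 to 16351021, had signals of 196, 301.5 and 189.5. The middle was the strongest in 4 of the 9, and that share was not computed for stacks on numbered chromosomes. The stack from 18200064 to 18200856, which holds the closest pair, had 193, 243.8 and 660.2.

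The other 6 stacks were weaker. The tightest of all, from 6126884 to 6127312, had signals of 28.7, 112.8 and 103.5. That from 18517001 to 18518341 had a first event of 121.8, followed by 28.2 and 36. The remaining 4 lay from 6588938 to 6590445, from 6968628 to 6969507, from 8772019 to 8772816 and from 12493591 to 12494593, and none of their members passed 78.

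**Figure D3:**
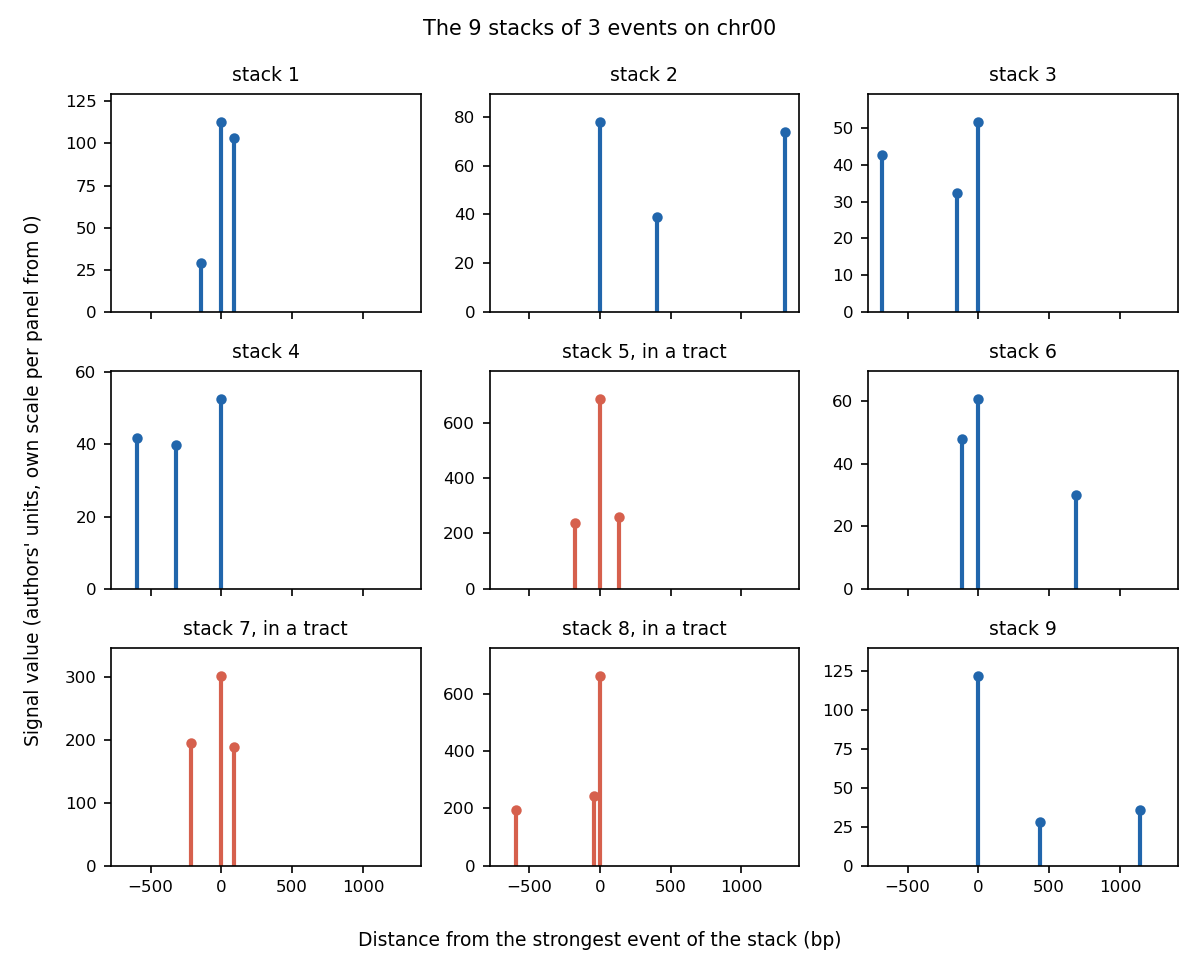
Each panel is 1 of the 9 chr00 stacks, in order along chr00. Lines give the signal value of each of its 3 events (authors' units, each panel with its own scale from 0) against the distance from the strongest (bp). Stacks 5, 7 and 8, in orange, have strongest members of 686.1, 301.5 and 660.2; all others are at 121.8 or below.

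A few strong events made up much of the chr00 signal. The top 1% of the list, at a signal of 392 or more, included 31 chr00 events (6.43%, 95% interval 4.57 to 8.98%), against 0.999% of all events and 0.560 to 1.53% per numbered chromosome. These 31 carried 42.6% of the summed chr00 signal, and the top events of the numbered chromosomes carried 7.58% of theirs. With 1.59% of the events, chr00 held 2.78% of the summed signal of the list. By signal, 8.71% of chr00 events lay from 200 to under 400 and 6.22% at 400 or above, compared with 3.59% and 0.858% elsewhere. The share below 50 was alike, 50% and 50.6%, and the classes between 50 and 200 were correspondingly smaller on chr00.

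The strongest chr00 event, at 13733233 to 13733433, had a signal of 4061, 81.4 times the chr00 median. It was followed by 2468 at 18205889 to 18206089 and 1724.5 at 7126175 to 7126375. These 3 have a p at the limit the list can write. The next 7 had signals of 1072.2 at 15071716, 1014 at 20686201, 990 at 20685863, 940 at 11366847, 909 at 13607307, 857 at 13724546 and 830.2 at 13722612 (first bases given). Of the 10, 5 lay within 1000 bp of another chr00 event, and 3 were between 13722612 and 13733433. At the other end, 7 chr00 events had the lowest signal in the list, 22. Those at 6031969, 6488539 and 6722333 come first by position, with −log10 p of 2.39, 3.57 and 3.37.

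The p of strong chr00 events did not follow their signal as on numbered chromosomes. In the class of 200 to under 400, the median −log10 p was 33.2 for 42 chr00 events (quartiles 23.7 and 55.5) and 59.6 for 1070 others (50.5 and 73.0), although the median signal was 274.6 on chr00 and 252.8 elsewhere. Of these 42, 25 (59.5%) were under the 5th percentile of the numbered chromosomes, 39.5. At 400 or above, 15 of 30 were under that class's own 5th percentile, 95.9. Below a signal of 50 the order was the other way, with a median −log10 p of 4.53 on chr00 and 3.59 to 4.03 per numbered chromosome. By median, weak chr00 events thus had a higher −log10 p, and strong ones a lower one, than numbered events of like signal. In the weak class the quartiles overlapped, 3.2 to 5.94 on chr00 and 2.84 to 5.3 elsewhere. Most of the strong events lay in the tracts described further on, chosen on signal and p. Outside them, 3 of 17 events of 200 to under 400 and 2 of 9 at 400 or above were under the 5th percentile. Events whose q missed 0.01 are not in the list, which bounds p from one side in the weak class.

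The same can be put as −log10 p per unit of signal, for events with a signal of 100 or more and a p above the limit of the list. This ratio had a median of 0.175 over 126 chr00 events, below the 0.203 to 0.221 of the numbered chromosomes. A ratio under 0.1, a bound set after the values were seen, was found in 35 of the 126 (27.8%, 95% interval 20.7 to 36.2%). In the whole list it was found in 1.85% and per numbered chromosome in 0 to 4.08%, highest on chr10. The lowest was 0.0201 at 13712227 to 13712427, where a signal of 253.8 had a −log10 p of 5.11. A signal of 237.1 at 7165017 to 7165217 had 5.22, and 159.2 at 16344802 to 16345002 had 3.61. In a test of sample reads against control reads, a lower −log10 p at a given signal goes with more control reads.

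**Figure D4:**
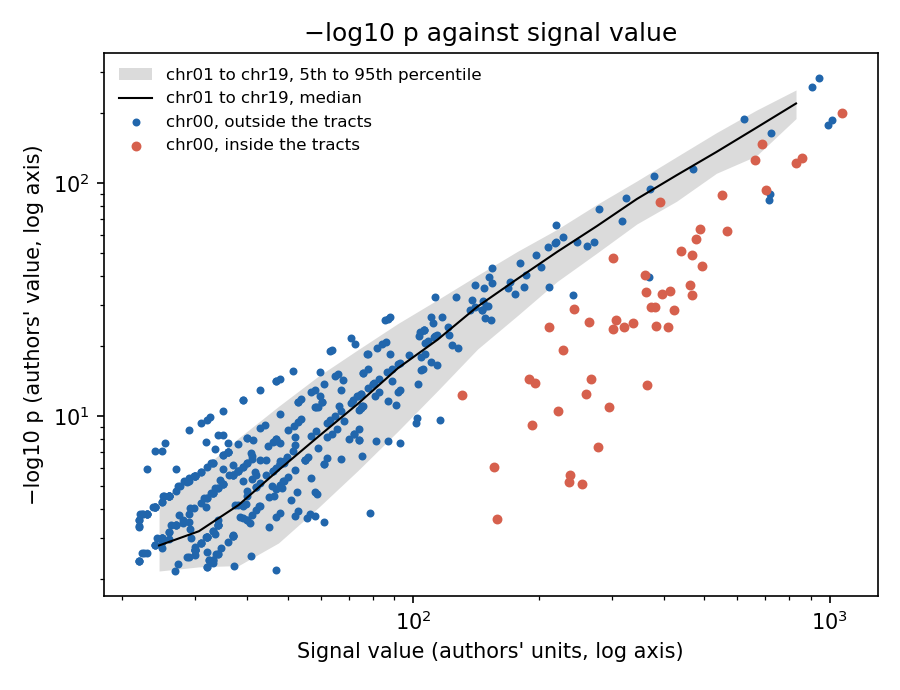
Points are chr00 events with −log10 p (authors' value, log axis) against signal value (authors' units, log axis), and those in the 6 tracts named in the text are orange. The grey band spans the 5th to 95th percentile of chr01 to chr19 in classes of signal, and the black line is their median. Most blue points lie in or above the band, and the orange ones lie mostly below it between signals of 131.3 and 1072.2; the 3 events at the limit of p are not drawn.

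These low ratios were not scattered. Joining chr00 events of low ratio at most 100 kb apart gave 6 tracts of 2 or more, which held 32 of the 35. With all other events inside them or within 1000 bp, the tracts had 52 events in 221 kb, 0.816% of the chr00 span and 10.8% of its events. They were chosen on signal and p, so the values that follow describe them and test nothing. The 62 events of low ratio on numbered chromosomes gave 4 such runs, which held 11 of them. The largest was of 5 events on chr10 from 16212290 to 16339114, with signals of 189.8 to 411.7. Of those 62, 8 had a signal of 200 or more, compared with 26 of the 35 on chr00.

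The tract with most events ran from 10802475 to 10872441, 70.0 kb, with 13 events of signal 131.3 to 686.1. The one from 13690211 to 13733433 had 11 events from 212 to 4061 and holds the strongest event of chr00. That from 7121887 to 7165217 had 9 events from 237.1 to 1724.5, and 8 of them had a neighbour within 1000 bp. The shorter tracts lay from 15060229 to 15095109 (7 events, 267.9 to 1072.2), from 16340390 to 16351021 (6 events, 159.2 to 301.5) and from 18200064 to 18218867 (6 events, 193 to 2468). No tract held an event near the chr00 median: all but 1 of the 52 had a signal over 150. They held 22 of the 31 chr00 events of the top 1%, 44.4% of the summed chr00 signal and 3 of the 9 stacks. Of their events, 71.2% had a neighbour within 1000 bp, a distance that also enters how they were gathered.

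**Figure D5:**
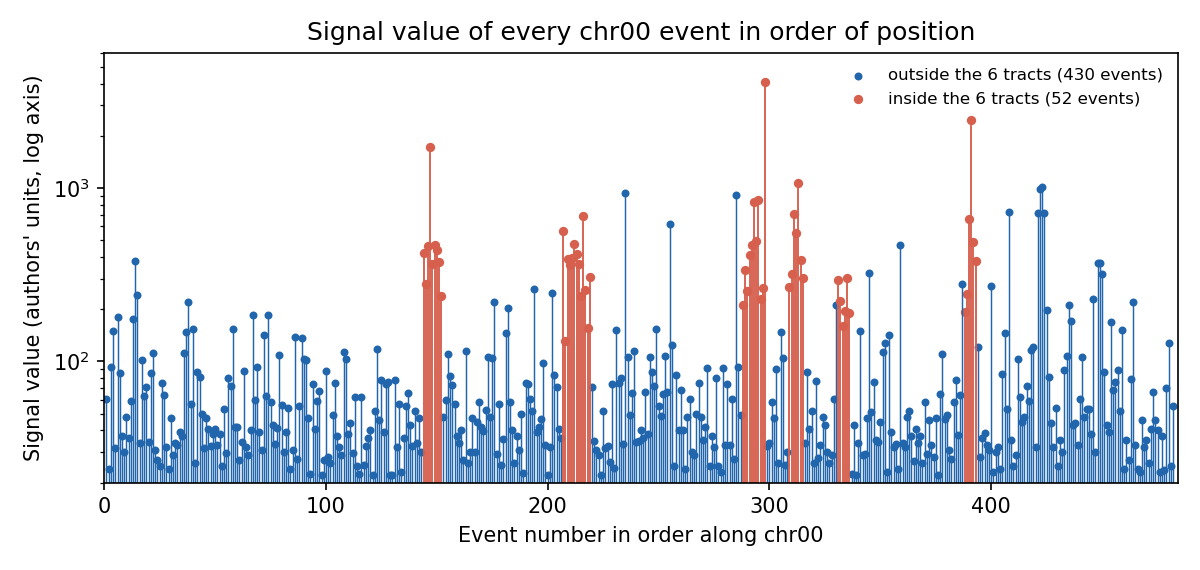
Signal value (authors' units, log axis) of all 482 chr00 events in order of position, counted from 1. The 52 events of the 6 tracts, in orange, stand as 6 blocks without weak members, 131.3 to 4061, and the 430 others, in blue, run from 22 to 1014.

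Without the tracts, the upper tail of chr00 was nearer to the numbered chromosomes. The chr00 median signal and share of close neighbours moved from inside their range to just below it. The tracts were gathered on strong signal, low ratio and nearness. The direction of these shifts, and of that in the ratio, therefore follows from that choice. No like runs were taken out of the numbered chromosomes. The 430 other events had a median signal of 46 (95% interval 41.3 to 48.5), just under the lowest chromosome median. Their 95th percentile was 219, still above the 201 of the highest chromosome, chr04. A neighbour within 1000 bp was found for 24.7% (20.8 to 28.9%), also just under the lowest chromosome, chr15. The median ratio of −log10 p to signal was 0.209, inside the range of numbered chromosomes. The share in the top 1% was 2.09% (9 of 430, 1.10 to 3.93%), still above the 1.53% of the highest chromosome, with an interval that includes it.

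The ratios of those 9 strong events outside the tracts ran from 0.119 to 0.301. Signals of 940 at 11366847 and 623 at 12231427 had a ratio of 0.301, the highest possible in a binomial test (one-sided, sample and control equally likely), reached when there are no control reads. For the event of 909 at 13607307 it was 0.285, for 470 at 17099142 it was 0.243 and for 722 at 19613736 it was 0.226. The other 4, 713 at 20682776, 990 at 20685863, 1014 at 20686201 and 719 at 20917468, had ratios of 0.119 to 0.184. The first 5 stood at least 1330 bp from any other event, and the last 4 lay between 20682776 and 20917668.

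The ratio can be read as a control value, the control count at which that binomial test would give the deposited p for the deposited signal. Many chr00 values lay near 4, 7, 11, 14 or 18, so the count may be scaled and is not to be taken as a number of reads. Whether control reads were scaled was not tested. Whether the authors' caller used this test is not given in the sources used here. For 227 of 254 isolated chr00 events with a whole signal (89.4%), the value came within 0.05 of a whole number, as it did for 79.9% of 14948 such events on numbered chromosomes. The rest did not come out whole. For 6 chr00 events of signal 32.6 to 219.8 the ratio, 0.301 to 0.305, was above the highest the test can give. No value was computed for them. All 6 have a fractional signal, which was used without rounding, and a signal rounded up was not tried. The reading was therefore not shown to hold for every event. The median control value was 10.9 over 473 chr00 events and 11.0 over 29657 others. Inside the tracts it was 111.5 over 49 events, up to 187 at 7126652 to 7126852, and outside them 8.90 over 424. The 4 strong events near 20.7 to 20.9 Mb had 157, 111, 106 and 150. Among events with a signal below 50, the median was 7.0 on chr00 and 8.68 to 10.9 per numbered chromosome. The median signal of these weak events was also lower on chr00, 33 against 34 to 37 per numbered chromosome. What that adds to the lower control value was not tested. The tracts were chosen on the signal and p from which the control value is computed, so their high values follow from that choice. The part of control reads in the excess of strong chr00 events was not tested.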

How the data were processed

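The data were 1 list of MYBPA1 events in narrowPeak layout, deposited for the whole series. The submitters' processing notes name fastp 0.21.0 and Bowtie2 2.0, and the list's name gives GEM as the event caller. Not given in the sources used here are its version, settings and control, the genome build, and how the 2 MYBPA1 libraries were joined. Signal, −log10 p and −log10 q are the authors' deposited values, with decimal commas read as points. The deposited display score was not used. A −log10 p of 999 marks the limit of the list and was left out of ratios.

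The members, bounds and lists were chosen with earlier results of these data known. Centres are the middle base of an event. Neighbours and stacks used 1000 bp, windows 100 kb, and shares have 95% Wilson intervals. Intervals of medians are binomial intervals on ranks. The control value was found by bisection and not computed at a −log10 p of 300 or more. Named by rule were the 10 strongest and 3 weakest events, stacks of 4 or more (none), the closest pair, the longest gap, the 5 richest windows and the 3 lowest ratios at a signal of 100 or more. All other regions were picked with their values in view. The functions for neighbours, stacks and the control value were tested on simulated data, the last with whole signals only. Software was Python 3.11.15 with scipy 1.17.1, pandas 2.3.3, matplotlib 3.10.9 and numpy 2.4.6.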

Additional observations from a re-analysis of the deposited data

How the results depend on the processing

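Of 40 alternatives to 7 chr00 values, 19 left the value inside its interval or its count within 1.5 times. Leaving out the richest window of 100 kb was such an alternative for all 7. Events with −log10 q of at least 5 gave a neighbour share of 23.5% (22% on chr01 to chr19) and a median signal of 77.7 (71 on chr01 to chr19). They gave 3 stacks with 2.90% of events (2.91% on chr01 to chr19). Without events within 200 bp of a stronger one, the neighbour share was 20.1% (19.4% elsewhere) and 3 stacks held 1.99% of events (2.99% elsewhere). Distances of 500 and 5000 bp gave neighbour shares of 23.2 and 56.8%, and 4 and 38 stacks with 2.49 and 27.4% of events. Those of chr01 to chr19 were 19.4 and 1.49% at 500 bp, below chr00, and 64.7 and 37.1% at 5000 bp, above it. The share of chr00 events was 15.6% in the top 5% and 1.66% in the top 0.1% (4.84 and 0.0737% on chr01 to chr19). The ratio of −log10 p to signal had a median of 0.121 at signals of 200 or more (0.241 on chr01 to chr19). Windows of 50 kb held up to 9 events. Leaving out the 6 tracts, an alternative chosen after seeing the data, gave a neighbour share of 24.7%, a median signal of 46, a top 1% share of 2.09% and a ratio of 0.209. No paired analysis was possible because no value is given per library, and for the same reason no replicate was left out. Library depth is unknown, which limits what can be said of sites absent from the list.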
